A study of Mus musculus with 14 samples.

Results

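The innate immune receptors of the Toll-like family and their shared adaptor Myd88 were examined in the hippocampus of 7 mice labelled LPAR2-/- and 7 wild-type (WT) mice. The members were Tlr1, Tlr2, Tlr3, Tlr4, Tlr5, Tlr6, Tlr7, Tlr9 and Myd88, taken by gene symbol from the deposited count table, and all 9 of them were among its 24421 genes. LPAR2 is a receptor for lysophosphatidic acid. All mice were naive males of the strain labelled 129.C57Bl6, with 1 ribosome-depleted library per mouse. The LPAR2-/- colony carries a deletion within an exon of Lpar2 and was bred as homozygotes, beside a separate control colony, on a background mixed from C57BL/6 and 129/SvJ. The mice are labelled as 10 to 12 weeks old, but the deposited description speaks of middle-aged to aged animals, so the age is not certain. The labels and methods name the hippocampus, and the study's results text names the dentate gyrus.

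Toll-like receptors recognise microbial structures and molecules released by damaged cells. Tlr1, Tlr2, Tlr4, Tlr5 and Tlr6 sit at the cell surface, where Tlr2 pairs with Tlr1 or Tlr6 to bind lipopeptides, Tlr4 binds lipopolysaccharide and Tlr5 binds flagellin. Tlr3, Tlr7 and Tlr9 sit in endosomes and bind double-stranded RNA, single-stranded RNA and DNA with unmethylated CpG. All of them except Tlr3 signal through Myd88, which recruits Irak kinases and activates NF-kB, whereas Tlr3 uses Ticam1. In brain tissue microglia and other macrophages carry most of these receptors. In bulk tissue, fewer cells of a type and less RNA per cell cannot be told apart.

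Tlr1 was the member that differed between the genotypes. Its mean level was 2.31 ± 0.905 CPM (counts per 1000000 counts of the library after scaling, SD, n = 7) in mice labelled LPAR2-/- and 0.578 ± 0.213 CPM (SD, n = 7) in WT mice, a fitted fold of 3.91. Of the 8 members that passed the filter on low counts, 1 passed the test and 7 did not, whereas 6.77% of all 14897 genes tested passed it in either direction and 3.32% passed it as higher in mice labelled LPAR2-/-. Tlr1 met the filter through the mice labelled LPAR2-/-, in which its median was 48 counts against 9 in WT mice. In a fit without the filter its log2 fold change was 1.97 with an adjusted p of 0.00204 (edgeR). The test was the quasi-likelihood F test of edgeR with Benjamini-Hochberg adjustment over all genes tested and a threshold of 0.05. Nothing states that the mice of a genotype came from separate litters, so the p-values measure the spread between these mice.

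Between 15434620 and 23258949 counts per library fell on genes, and the libraries of a genotype differed from one another by more than sampling noise. The targeted gene ran against the labels. Lpar2 was at 8.2 to 12.3 CPM in the mice labelled LPAR2-/- and at 1.51 to 3.23 CPM in WT mice, so every library labelled LPAR2-/- held more Lpar2 counts than any WT library. The counts cover all exons of Lpar2 together and do not show whether the deleted part was present, so genotypes are given as labelled. Hippocampal tissue was visible in the markers, with Snap25 of neurons at 2321 and 2402 CPM in mice labelled LPAR2-/- and WT, and Calb1, a calcium buffer of granule cells, at 327 and 331 CPM.

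Tlr1 lies on the minus strand of chromosome 5 (mm10, chr5:64924680-64933558), and its 5 counted exons hold 3054 bases. By the GENCODE M21 annotation of that build the coding sequence lies wholly in the last exon, at chr5:64924848-64927232. The sequence before the outermost annotated start is shown because Tlr1 is the member whose RNA differed. It is taken from RefSeq (GRCm38.p6, chr5:64933601-64933808, minus strand), and 7 of the 9 members were matched in that table of promoters, each with 300 bases around a start.
Tlr1 upstream: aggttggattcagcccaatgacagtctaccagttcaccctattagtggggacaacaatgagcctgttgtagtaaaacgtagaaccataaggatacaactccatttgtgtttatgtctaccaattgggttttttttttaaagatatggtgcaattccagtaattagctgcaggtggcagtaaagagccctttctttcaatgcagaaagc
Closer to the counted first exon, 16 bases before it, stands a match to GAGGAAGT, the letters searched for PU.1, a transcription factor of macrophages and microglia. It is printed in capitals within 30 bases at chr5:64933563-64933592, also on the minus strand.
Tlr1 motif: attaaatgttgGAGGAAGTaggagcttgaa
These letters, searched on both strands, occurred in 3.20% of 32851 promoters of 300 bases and, among the members, in those of Tlr1 and Tlr9. A match describes the letters and is not a binding site.

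The receptors of lipopeptides were the first group compared. Tlr1 counts ranged from 13 to 54 in mice labelled LPAR2-/- (median 48) and from 7 to 18 in WT mice (median 9). On the CPM scale, the lowest, median and highest mice labelled LPAR2-/- had 0.563, 2.58 and 3.16 CPM, against 0.342, 0.457 and 0.875 CPM in WT mice. All mice labelled LPAR2-/- except mouse 3 lay above every WT mouse, and mouse 3 lay within the WT range. Tlr1 rose by 1.97 on the log2 scale (SE 0.324, 95% interval 1.28 to 2.65), with an adjusted p of 0.00238 by edgeR's quasi-likelihood test. The 6 mice other than mouse 3 were at 2.60 ± 0.52 CPM (SD, n = 6), and the lowest of them was 2.07 times the highest WT mouse, a description given with no test because mouse 3 was set apart by its Tlr1 value. At least 6 of the 7 mice labelled LPAR2-/- lay above all WT mice, whichever mouse was the exception, for 2.52% of the genes tested. Tlr1 also appears in a network picture of the study, among genes picked as higher in these same mice, so its direction here is not independent evidence.

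**Figure D1:**
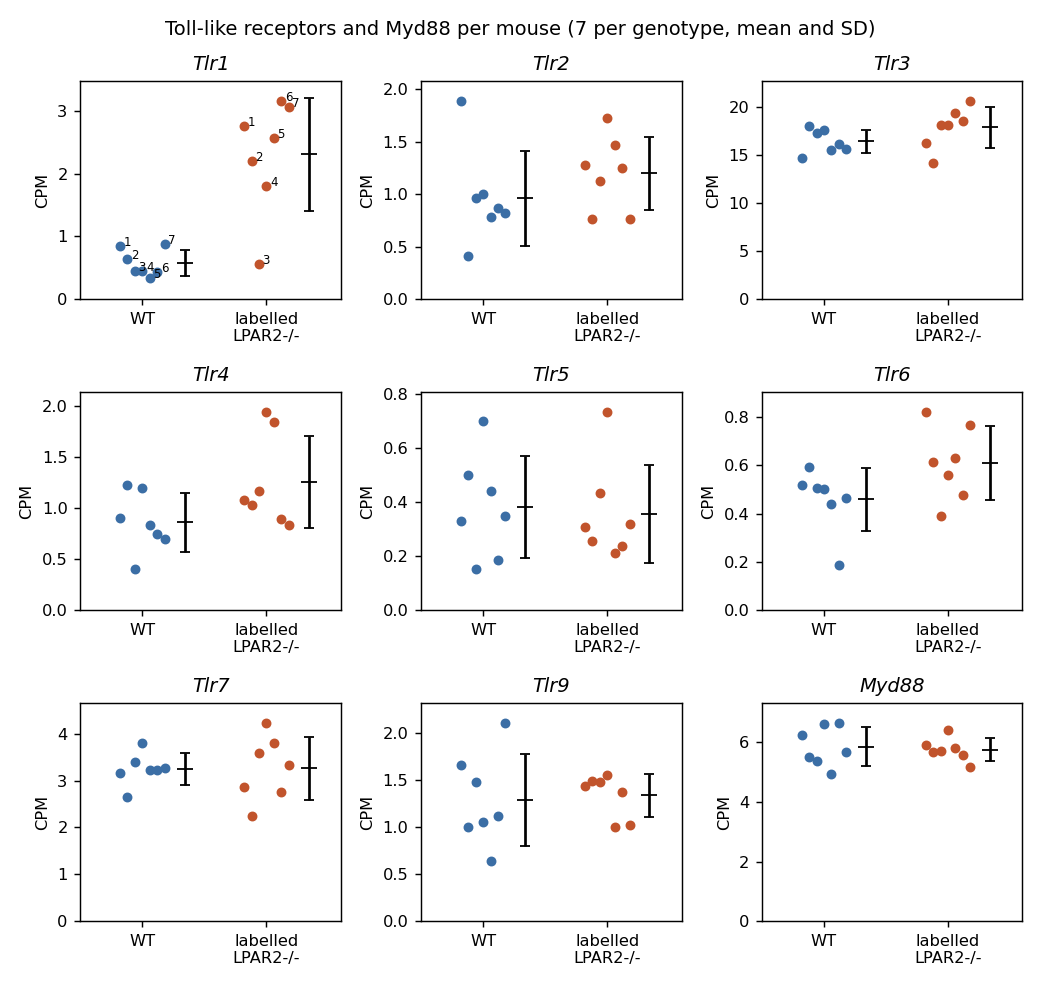
Level (CPM) of each member in 7 WT mice and 7 mice labelled LPAR2-/- (points), with the mean and SD beside them, and with mouse numbers for Tlr1. Tlr1 is at 1.81 CPM or more in 6 mice labelled LPAR2-/- and at 0.875 CPM or less in all WT mice and in mouse 3, whereas the groups overlap for the other 8 members.

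Tlr2, which forms the receptor together with Tlr1, was at 0.768 to 1.72 CPM (median 1.25) in mice labelled LPAR2-/- and at 0.41 to 1.89 CPM (median 0.868) in WT mice. WT mouse 1 was above and WT mouse 2 below every mouse labelled LPAR2-/-, and the other 5 WT mice lay within their range, at up to 1 CPM. Its log2 fold change was 0.32 (95% interval −0.25 to 0.90, adjusted p = 0.514, edgeR). The log2 fold change of Tlr2 moved both ways with the analysis. It was 0.59 without WT mouse 1, a description with no test since that mouse stands out by its Tlr2 value, and −0.11 with perivascular macrophage markers as a covariate. Tlr6, the other partner of Tlr2, was at 0.39 to 0.821 CPM (median 0.615) in mice labelled LPAR2-/- and at 0.186 to 0.592 CPM (median 0.5) in WT mice. In 4 of the 7 mice labelled LPAR2-/- it was above every WT mouse, and the log2 fold change of 0.37 (95% interval −0.12 to 0.86) had an adjusted p of 0.382 by edgeR. These values rest on 8 to 16 and 3 to 13 counts per mouse.

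Tlr6 is the nearest gene to Tlr1, with starts 26.5 kb apart on the same strand (chr5:64953095-64960034). Tlr1 and Tlr6 are also the closest pair by sequence. Of the 3332 stretches of 50 bases in the annotated Tlr1 transcripts, 454 (13.6%) occurred unchanged in Tlr6, and no other member shared such a stretch with a Toll-like receptor gene. The authors did not count reads that map to several places, so reads lying wholly in such stretches were assigned to neither gene, and the counts of both are uncertain to that extent. The ratio of Tlr1 to Tlr6 counts was 1.44 to 6.63 (median 3.58) in mice labelled LPAR2-/- and 0.778 to 2.33 (median 1.08) in WT mice. The ranges of this ratio overlap.

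Among the other receptors of the cell surface, Tlr4 was at 0.832 to 1.94 CPM (median 1.08) in mice labelled LPAR2-/- and at 0.406 to 1.23 CPM (median 0.831) in WT mice. Mice 4 and 5 labelled LPAR2-/- lay above all WT mice and the other 5 lay within the WT range. The log2 fold change of Tlr4 was 0.55 (95% interval 0.02 to 1.08) with an unadjusted p of 0.0431 and an adjusted p of 0.206 by edgeR, so it did not pass over all genes. The same mice 4 and 5 had the highest sums of perivascular macrophage markers (71.1 and 57.4 CPM) and of meningeal fibroblast markers (447 and 513 CPM). With these lists as covariates the log2 fold change of Tlr4 was 0.26 and 0.31, the first fit being added after the data were seen. The part of border tissue in the Tlr4 level was not tested. Apart from Tlr1, Tlr4 was the only member with an unadjusted p below the threshold in edgeR and in limma, and DESeq2 found none. Tlr5 had 4 to 17 counts per mouse labelled LPAR2-/- and 3 to 14 counts per WT mouse, and it was the member that failed the filter. In a fit without the filter its log2 fold change was −0.07 (95% interval −0.81 to 0.67, adjusted p = 0.946, edgeR). At these counts a difference in Tlr5 within this interval was not detectable.

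The receptors of endosomes included the most abundant member. Tlr3 was at 14.1 to 20.6 CPM (median 18.1) in mice labelled LPAR2-/- and at 14.7 to 18 CPM (median 16.1) in WT mice, from 260 to 419 counts per mouse. In 5 of the 7 mice labelled LPAR2-/- it was above every WT mouse, by little in some, and the lowest value was also in a mouse labelled LPAR2-/-. Its log2 fold change was 0.12 (95% interval −0.04 to 0.28, adjusted p = 0.370, edgeR). Tlr7 was at 2.25 to 4.22 CPM (median 3.33) in mice labelled LPAR2-/- and at 2.64 to 3.8 CPM (median 3.23) in WT mice. Its groups had nearly the same mean, and the SD was larger in mice labelled LPAR2-/- (0.677 against 0.343 CPM, n = 7 each). The log2 fold change of Tlr7 was 0.01 (95% interval −0.27 to 0.29, adjusted p = 0.979, edgeR), and its sign changed between alternative analyses. Tlr9 was at 1 to 1.55 CPM (median 1.44) in mice labelled LPAR2-/- and at 0.635 to 2.1 CPM (median 1.12) in WT mice. The WT mice again spanned the other genotype, and the log2 fold change was 0.07 (95% interval −0.39 to 0.52, adjusted p = 0.896, edgeR).

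Myd88, the adaptor common to all of these receptors but Tlr3, was at 5.18 to 6.42 CPM (median 5.72) in mice labelled LPAR2-/- and at 4.94 to 6.64 CPM (median 5.66) in WT mice. All mice labelled LPAR2-/- lay within the WT range. The log2 fold change was −0.02 (95% interval −0.20 to 0.15, adjusted p = 0.911, edgeR), so that a change of more than 0.20 on the log2 scale lay outside the interval. Over the 8 members tested the median log2 fold change was 0.22, with 7 above 0 and 1 below, beside a median of 0.00 over all genes tested, of which 7613 were above 0.

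**Figure D2:**
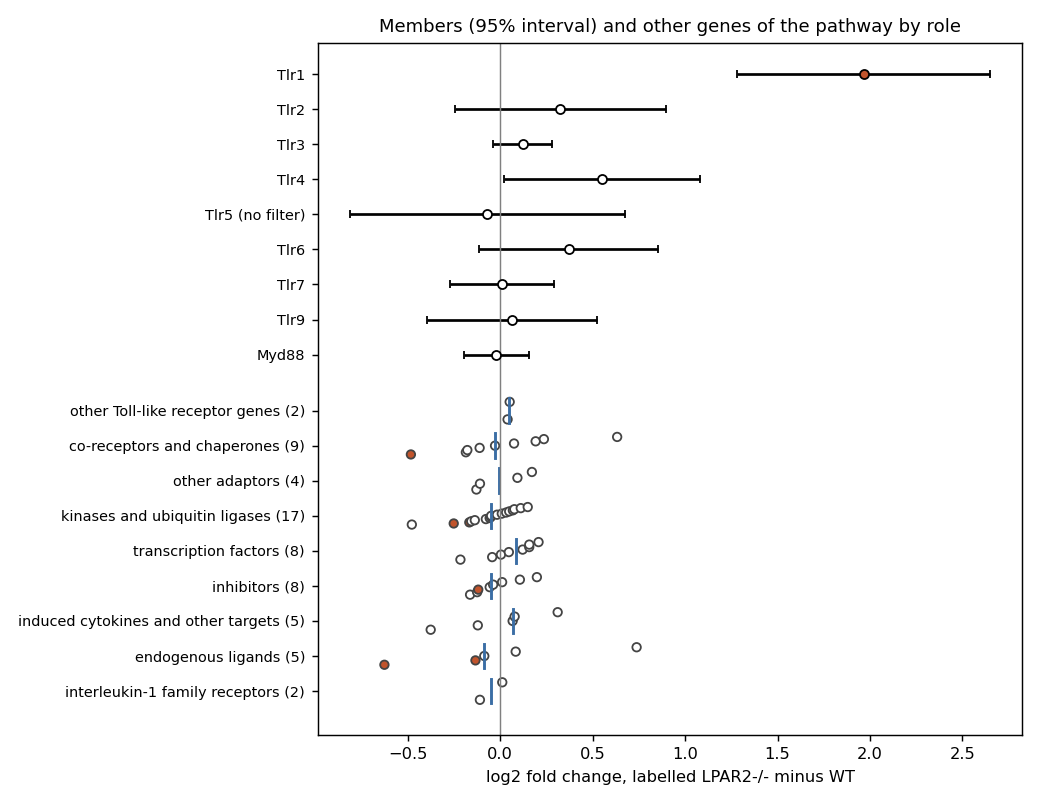
Log2 fold change (labelled LPAR2-/- minus WT) of each member with its 95% interval (upper rows), and of the other genes tested of the pathway, 1 point per gene and 1 row per role with the median as a bar (lower rows). Filled points passed the edgeR test at an adjusted p under 0.05, which were Tlr1 on the higher side and 6 pathway genes on the lower side.

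The order of the members was compared in CPM per kilobase of counted exon, the scale on which genes of different length can be set side by side. In WT mice Tlr3 was highest with a level of 3.79 ± 0.286 (SD, n = 7) on this scale, followed by Myd88 with 3.07 ± 0.341 and Tlr7 with 0.816 ± 0.0862. Tlr3 was above Myd88 in 7 of 7 WT mice although their ranges overlapped, and the ranges of Myd88 and Tlr7 and those of Tlr7 and Tlr9 did not overlap. Then came Tlr9 at 0.372 ± 0.14, Tlr2 at 0.337 ± 0.159, Tlr4 at 0.223 ± 0.075, Tlr1 at 0.189 ± 0.0699, Tlr6 at 0.176 ± 0.0497 and Tlr5 at 0.119 ± 0.0589. From Tlr9 downward each neighbour overlapped the next. In mice labelled LPAR2-/- Tlr1 stood at 0.756 ± 0.296 (SD, n = 7) and so moved from the seventh to the fourth place, where it overlapped Tlr7 at 0.819 ± 0.17. Tlr7 was above Tlr1 in 3 of these 7 mice. Of the counts of all 9 members together, Tlr1 took 1.92% ± 0.701 in WT mice and 6.81% ± 2.65 in mice labelled LPAR2-/- (SD, n = 7 each), and Tlr3 took 54.7% ± 3.59 and 52.6% ± 3.30.

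**Figure D3:**
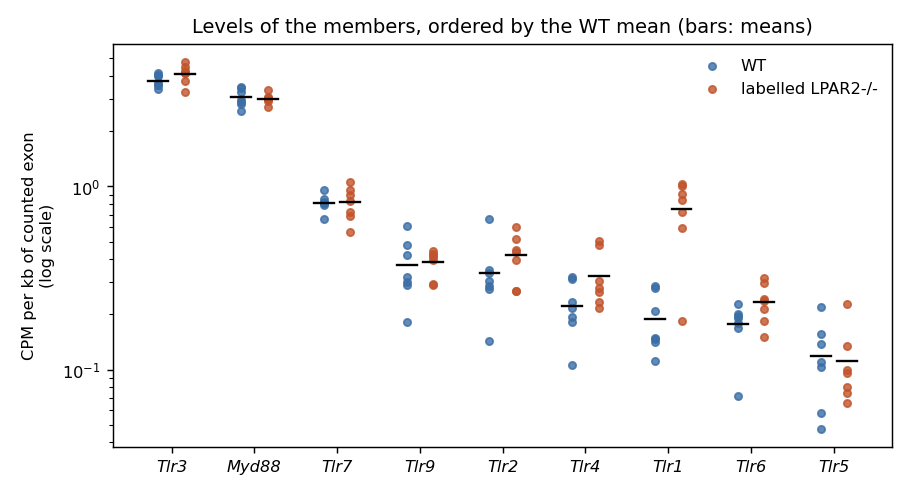
Level of each member in CPM per kilobase of counted exon (log scale) in every mouse, ordered by the WT mean, with bars at the means. Tlr3 and Myd88 stand above all others in both genotypes, and Tlr1 is at 0.189 in WT mice and at 0.756 in mice labelled LPAR2-/- on average.

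A further 82 genes of Toll-like receptor signalling were listed by role, and 60 of them passed the filter. Of these, 0 rose and 6 fell, beside 3.32% of all genes tested that rose and 3.46% that fell, the background also for the counts per role. At an unadjusted p under 0.05 edgeR had 2 higher and 9 lower, and DESeq2 and limma also called 0 higher, with 7 and 6 lower. The median log2 fold change over the 60 genes was −0.01, with 30 above 0 and 30 below. The calls on the lower side depended on the analysis and fell to 0 or 1 when the mouse number or the meningeal, perivascular or choroid plexus markers were added to the fit. The log2 fold changes in those 4 fits stayed below 0, at −0.49 to −0.46 for Hsp90b1, −0.28 to −0.23 for Irak2, −0.18 to −0.16 for Chuk, −0.90 to −0.53 for Hmgb1, −0.13 to −0.11 for Hspd1 and −0.12 to −0.082 for Tollip.

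The 2 other Toll-like receptor genes tested, Tlr12 and Tlr13, did not pass. Tlr13, an endosomal receptor of bacterial ribosomal RNA, was the higher of them with 2.54 ± 0.353 CPM in mice labelled LPAR2-/- and 2.48 ± 0.274 CPM in WT mice (SD, n = 7 each). Tlr8 had 0 to 3 counts per mouse and Tlr11 had 0 to 1, which is not above the 3 counts that a count of 0 allows.

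Among 9 co-receptors and chaperones 1 gene fell. Hsp90b1, the chaperone that folds most Toll-like receptors in the endoplasmic reticulum and serves many other clients, was at 348 to 485 CPM (median 365) in mice labelled LPAR2-/- and at 380 to 689 CPM (median 566) in WT mice. The ranges overlapped, and the log2 fold change was −0.48 (95% interval −0.72 to −0.24, adjusted p = 0.0213, edgeR). Lbp, which carries lipopolysaccharide to Cd14, had a log2 fold change of 0.63 with an adjusted p of 0.141 by edgeR. Of the 4 other adaptors 0 passed in edgeR, DESeq2 and limma, with Sarm1, a negative regulator and axon degeneration enzyme, highest at 38.9 ± 4.21 and 42.1 ± 2.86 CPM (SD, n = 7 each).

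Of the 17 kinases and ubiquitin ligases 2 fell by edgeR. DESeq2 also called Ikbkb lower, which had a log2 fold change of −0.14 and an adjusted p of 0.0889 by edgeR. Irak2, a kinase of the complex assembled on Myd88, was at 14.2 to 16.8 CPM in mice labelled LPAR2-/- and at 15.3 to 21.1 CPM in WT mice. Its log2 fold change was −0.25 (95% interval −0.39 to −0.11, adjusted p = 0.0321, edgeR). Chuk, a subunit of the kinase that releases NF-kB, was at 44.9 to 48.6 CPM against 48.7 to 55.9 CPM in WT mice, so that its groups did not overlap, as was the case for 1.77% of all genes tested. Its log2 fold change was −0.17 (95% interval −0.25 to −0.08, adjusted p = 0.0231, edgeR). Ube2n, the ubiquitin-conjugating enzyme that works with Traf6, was the highest of this group at 133 ± 4.67 and 138 ± 9.05 CPM (SD, n = 7 each) and did not pass.

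Of the 8 transcription factors tested 0 passed, in edgeR as in DESeq2 and limma. Irf3, a factor downstream of Tlr3 and Tlr4 and the highest of this group per kilobase, had a log2 fold change of −0.22 with an unadjusted p of 0.0262 and an adjusted p of 0.158 by edgeR. Of the 8 inhibitors tested 1 fell. Tollip, which restrains Irak1, was at 193 to 217 CPM in mice labelled LPAR2-/- and at 211 to 230 CPM in WT mice, and its log2 fold change was −0.12 (95% interval −0.19 to −0.05, adjusted p = 0.0459, edgeR).

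Of 17 cytokines and other genes that the pathway induces, 5 passed the filter and 0 of them passed the test in edgeR, DESeq2 or limma. Ptgs2, the prostaglandin synthase that neurons also express, was the highest at 38.9 ± 7.25 CPM in mice labelled LPAR2-/- and 42.4 ± 13.3 CPM in WT mice (SD, n = 7 each). Tnf had 0 to 2 counts per mouse, Il6 0 to 2 and Il1b 0 to 5, so that a difference in these cytokines was not detectable at this depth. Cxcl10, an interferon-induced chemokine also under the filter, had 6 to 31 counts in mice labelled LPAR2-/- and 1 to 9 in WT mice. All 7 mice labelled LPAR2-/- lay above its WT mean in CPM, and in the fit without the filter its log2 fold change was 1.07 with an unadjusted p of 0.0199 and an adjusted p of 0.171 by edgeR. Of the 5 endogenous ligands tested 2 fell. Hmgb1, a nuclear protein that activates Tlr4 once released, was at 5.26 to 13.5 CPM (median 7.1) in mice labelled LPAR2-/- and at 11.2 to 13.9 CPM (median 12) in WT mice, with 1 mouse labelled LPAR2-/- above the WT mean. Its log2 fold change was −0.63 (95% interval −0.98 to −0.27, adjusted p = 0.0344, edgeR). Hspd1, a mitochondrial chaperone, had a log2 fold change of −0.13 (95% interval −0.21 to −0.06, adjusted p = 0.0398, edgeR). Both have near-identical copies in the genome, and reads that map to several places were not counted, so their counts are uncertain. Of the 2 interleukin-1 family receptors tested, which share Myd88 with the Toll-like receptors, 0 passed in edgeR, DESeq2 or limma, and Il1r1 was at 59 ± 13 and 58.5 ± 13.5 CPM (SD, n = 7 each).

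Since microglia carry most of these receptors, their markers were read beside the members. The summed level of 18 microglia markers was 547 to 675 CPM in mice labelled LPAR2-/- and 548 to 737 CPM in WT mice. The top of the WT range was WT mouse 1 alone, which also had the highest Tlr2, and the next WT mouse had 624 CPM. Of these markers 0 passed in edgeR, DESeq2 or limma, with 2 at an unadjusted p under 0.05 in edgeR. Their mean log2 CPM was 0.06 higher in mice labelled LPAR2-/- (two-sided exact permutation test over 3432 arrangements, p = 0.481, adjusted p = 0.691 over 9 marker lists). With the microglia markers as a covariate, the log2 fold change of Tlr1 was 1.97 with an adjusted p of 0.00462 by edgeR.

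Within a genotype the members were compared with the microglia markers over its 7 mice. Of 16 relations, 8 members in each genotype, Pearson's r ranged from −0.53 to 0.81 and 0 passed after adjustment, with 3 at an unadjusted p under 0.05. These were Tlr2 in WT mice (r = 0.81, exact permutation p = 0.0450, adjusted p = 0.240; rho = 0.86, exact permutation p = 0.0238, adjusted p = 0.381), Tlr3 in mice labelled LPAR2-/- (r = 0.80, exact permutation p = 0.0377, adjusted p = 0.240; rho = 0.39, exact permutation p = 0.396, adjusted p = 0.882) and Tlr7 in mice labelled LPAR2-/- (r = 0.79, exact permutation p = 0.0365, adjusted p = 0.240; rho = 0.71, exact permutation p = 0.0881, adjusted p = 0.705). Without the 2 mice farthest from the median of the markers, r became 0.30, −0.56 and 0.49. Leaving these mice out narrows the range of the markers, so this step cannot show what a relation rested on. It raised other relations, such as Tlr9 in mice labelled LPAR2-/- (r from −0.19 to 0.79) and Myd88 in WT mice (r from 0.39 to 0.84). Tlr1 had r = −0.35 in mice labelled LPAR2-/- and r = 0.38 in WT mice (exact permutation p = 0.485 and 0.443, adjusted p = 0.740 for both), with rho = −0.32 and 0.25 (exact permutation p = 0.498 and 0.595, adjusted p = 0.882 for both).

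Markers of border tissues were also read, since macrophages of the meninges and vessels may carry Toll-like receptors. The 10 meningeal fibroblast markers summed to 103 to 513 CPM in mice labelled LPAR2-/- and to 78.1 to 371 CPM in WT mice, with Igf2 the highest. Of them 1, Lum, rose, and their mean log2 CPM differed by 0.97 (exact permutation p = 0.0478, adjusted p = 0.143). The 8 perivascular macrophage markers summed to 32 to 71.1 against 21.2 to 51 CPM, with Stab1 the highest, and the difference in mean log2 CPM was 0.70 (exact permutation p = 0.0472, adjusted p = 0.143). All 7 tested markers of this list had log2 fold changes above 0, and DESeq2 called 1 of them, Mrc1, a mannose receptor, which had a fold of 1.90 by edgeR (adjusted p = 0.123) and was above its WT mean in 7 of 7 mice labelled LPAR2-/-. The 7 choroid plexus markers summed to 28.4 to 291 against 29.7 to 35.1 CPM. The top of the first range was mouse 2 labelled LPAR2-/- alone, with 242 CPM of Ttr, and the next mouse had a sum of 53.9 CPM. All 7 markers of this list had log2 fold changes above 0, from 0.12 (Kl) to 3.85 (Ttr). The value for Ttr rested largely on mouse 2, since its median was 2.37 CPM in mice labelled LPAR2-/- and 2.7 CPM in WT mice. Kcnj13 was at 1.92 (adjusted p = 0.0604, edgeR, called by DESeq2), and Clic6 in the fit without the filter at 2.38 (adjusted p = 0.0670, edgeR). The difference in mean log2 CPM of this list was 0.86 (exact permutation p = 0.0134, adjusted p = 0.121). Over the same 9 lists, the lists of endothelium, astrocytes, oligodendrocytes, neurons and hippocampal principal neurons had adjusted p-values of 0.691 to 0.940. DESeq2 called Slco1a4 of the endothelium list higher, and DESeq2 and limma called Map2 of the neuron list lower, whereas edgeR called 0 genes in these 2 lists. Markers of blood cells were low. Alas2, an enzyme of haem synthesis in red blood cell precursors, had 17 to 73 counts in mice labelled LPAR2-/- and 17 to 44 in WT mice. The globin genes Hbb-bs, Hbb-bt, Hba-a1 and Hba-a2 are listed at 0 in every library, but 98.6% or more of the counted bases of each are shared with other genes of the table and ambiguous reads were left out, so these zeros do not measure blood. Lymphocyte markers summed to at most 1.16 CPM. Those of monocytes and neutrophils summed to 0.872 to 1.91 CPM in mice labelled LPAR2-/- and to 0.733 to 4.35 CPM in WT mice. Single genes of this list went both ways. In the fit without the filter their log2 fold changes ran from −2.65 (adjusted p = 0.341, edgeR) to 2.49 (adjusted p = 0.0755, edgeR).

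Tlr1 was set beside the meningeal markers in single mice, which were picked after their values were seen. Mouse 3 labelled LPAR2-/-, with the low Tlr1, also had the lowest meningeal sum of its genotype, 103 CPM. Lum, the meningeal marker that rose, had the pattern of Tlr1, with mouse 3 within the WT range and the other 6 mice labelled LPAR2-/- above all WT mice. WT mouse 4 had 371 CPM of meningeal markers and 0.45 CPM of Tlr1, and mouse 2 labelled LPAR2-/- had 181 CPM of them and 2.2 CPM of Tlr1. With the meningeal markers as a covariate the log2 fold change of Tlr1 was 1.56, with an adjusted p of 0.0390 by edgeR. With perivascular macrophage markers it was 1.92 (adjusted p = 0.0224, edgeR) and with choroid plexus markers 1.99 (adjusted p = 0.0175, edgeR), both added after the values had been seen. The other members did not pass in any of these fits. The part of border tissue in the Tlr1 level was not tested.

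**Figure D4:**
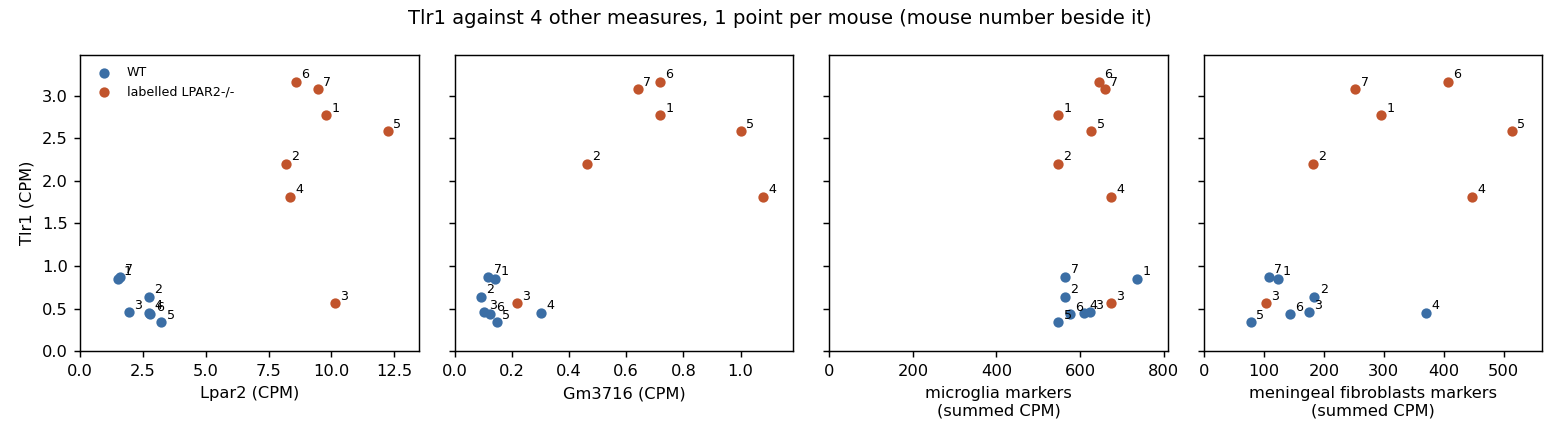
Tlr1 in CPM against Lpar2, the RNA Gm3716 (both in CPM) and the summed CPM of microglia and meningeal fibroblast markers, 1 point per mouse with its number. Mouse 3 labelled LPAR2-/- is with the WT mice in Tlr1 (0.563 CPM) and Gm3716 (0.217 CPM), and with its own genotype in Lpar2 (10.1 CPM).

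Mouse 3 labelled LPAR2-/- was the exception for Tlr1, and its other values were compared. Its Lpar2 level was 10.1 CPM, within the 8.2 to 12.3 CPM of its genotype, and its microglia markers summed to 673 CPM. Its 6 oligodendrocyte markers summed to 3878 CPM, against 969 to 2029 CPM in the other 13 mice. Their part in its Tlr1 level was not tested. For 79 of the 14897 genes tested, mouse 3 lay within the WT range while the other 6 mice labelled LPAR2-/- lay above all WT mice. The same count for each of the other mice labelled LPAR2-/- was between 11 and 44.

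The genes around each member were counted because the colonies have a mixed background. Around Tlr1, 22 other genes have their lower coordinate within 1 Mb of that of Tlr1, 18 of them were tested and 0 passed in edgeR, DESeq2 or limma, with 0 higher and 3 lower at an unadjusted p under 0.05 in edgeR. Their log2 fold changes ranged from −0.45 to 0.37, the highest being that of Tlr6. Gm3716, an RNA of unknown function that failed the filter and was picked out after its values were seen, starts 322.9 kb from the start of Tlr1 (chr5:64593863-64610699). It had 5 to 25 counts in mice labelled LPAR2-/- and 2 to 6 counts in WT mice, and mouse 3 with 5 counts was the lowest of its genotype, as for Tlr1. In the fit without the filter its log2 fold change was 2.19 (SE 0.369, adjusted p = 0.00235, edgeR). Around the other members, excluding Tlr1 itself as neighbour of Tlr6, 0 to 4 genes within 1 Mb passed, with 4 of 22 tested around Myd88. Strain-specific sequence was not analysed here.

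For the 3 members with a median of at least 50 counts, the genes most alike across mice were named, as the highest Pearson correlations of log2 CPM over the 14 mice after the genotype means had been removed. Values of a mouse share 1 library and its depth, and with 14896 genes to choose from these are descriptions. For Tlr3 they were Pon2 (r = 0.92), H13 (r = 0.89) and Tgm4 (r = 0.89). For Tlr7 they were Pdgfd (r = 0.94), Nkd1 (r = 0.92) and Adhfe1 (r = 0.91). For Myd88 they were Nfkb2 (r = 0.86), a subunit of NF-kB, Nenf (r = 0.84) and Tmem200b (r = 0.84). The median correlation with the 18 microglia markers was 0.33 for Tlr3, 0.39 for Tlr7 and 0.25 for Myd88.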

How the data were processed

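Total RNA of 14 mice was sequenced after ribosomal depletion. Upstream, the authors used cutadapt 1.18 for trimming, STAR for alignment (build mm10) and featureCounts 1.6.3 for reverse-stranded exon counts per gene, leaving out multimapping and ambiguous reads. These deposited counts carry no normalization. A deposited table of normalized values was not used, because its decimal points were lost, and 0 columns of per-sample values lacked a sample.

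Counts were analysed in R 4.3.3 with edgeR 4.0.16 (filterByExpr, TMM, robust quasi-likelihood F test, adjusted p under 0.05), limma 3.58.1 and DESeq2 1.42.0, and permutation tests in Python 3.11.15 with scipy 1.17.1. CPM refer to the library size after the filter times its TMM factor, and on the log2 scale they carry a prior count of 2. A count of 0 allows up to 3 counts, a floor that covers counting error only. The 95% intervals of fold changes come from the edgeR fit. The procedures were tested on simulated data. The exact test of 7 against 7 mice has 3432 arrangements and a smallest p of 0.000583.

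Members and lists were chosen with earlier results of these data known. Named genes were all members, pathway genes past the threshold, the highest gene of each role and marker list, markers at 0, and the 3 genes most alike to each member with at least 50 counts. One gene that this rule names is not reported here. Lbp, Ikbkb, Cxcl10, Tnf, Il6, Il1b, Tlr8, Tlr11, Tlr12, Kl, Kcnj13, Clic6, Mrc1, Lum, Slco1a4, Map2 and Gm3716 fall outside it and were chosen after their values were seen. Alternatives were DESeq2, other scalings and filters, limma, marker covariates, a replicate block, each mouse left out, a prior count of 0.5 and a window of 2 Mb. Mice of the same number were no more alike (correlations −0.33 to 0.31, 3 of 7 over 0.1), so numbers do not pair them.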

Additional observations from a re-analysis of the deposited data

Results flagged for a closer look

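In groups of 7 mice, 1 value stood apart from the others where its gap to the nearest value was more than 0.568 of the group's range. Chance alone gives about 1 such case in 20 groups, and 48 groups were looked at. Tlr1 in mice labelled LPAR2-/- had a gap of 0.663 of the range on the log2 scale, from the low mouse 3. Tlr2 in WT mice had a gap of 0.601 in CPM, from WT mouse 1 at 1.89 CPM. Tlr5 in mice labelled LPAR2-/- had a gap of 0.573 in CPM, from mouse 4 at 0.732 CPM and 17 counts. Tlr6 in WT mice had a gap of 0.626 in CPM and 0.719 on the log2 scale, from WT mouse 6 with 3 counts. Hsp90b1 in mice labelled LPAR2-/- had a gap of 0.656 in CPM and 0.618 on the log2 scale.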

How the results depend on the processing

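Tlr1 was called in every fit that tested it, with log2 fold changes of 1.56 to 1.99 over the other analyses and of 1.87 to 2.15 when 1 mouse was left out, at adjusted p-values of up to 0.0390 (edgeR, DESeq2 and limma). With at least 10 counts asked of every library, 0 members were called, since Tlr1, Tlr2, Tlr4, Tlr5 and Tlr6 then fail the filter. With mouse numbers as the replicate block, Tlr1 stayed called at 1.93 (adjusted p = 0.00330), 586 genes were called in place of 1009, and of the pathway genes 1 in place of 6. Calls fell to 380 genes and 0 pathway genes with meningeal markers as a covariate, to 321 and 0 with perivascular macrophage markers and to 292 and 1 with choroid plexus markers, the last pair of fits being added after the data were seen, and with microglia markers 3 pathway genes were called. Without 1 mouse the calls were 567 (without WT mouse 2) to 1385 genes and 1 to 7 pathway genes, and fewer than 1009 by more than 1.5 times without mouse 1 labelled LPAR2-/- (611) or WT mouse 2 (567), 4 (669), 5 (596) or 6 (654). Some members that were not called changed sign. Tlr7 was at −0.015 with limma, −0.0073 with the replicate block, −0.047, −0.093 and −0.18 with microglia, meningeal and perivascular markers, and −0.063 to 0.084 without 1 mouse. Tlr2 was at −0.11 with perivascular markers and Tlr9 at −0.064 with choroid plexus markers. Without 1 mouse, Tlr9 ranged from −0.054 to 0.22 and Myd88 from −0.059 to 0.0098. The endothelial marker difference was 0.0097 with upper-quartile scaling. Without 1 mouse, marker differences ranged from −0.083 to 0.049 (endothelium), −0.25 to 0.081 (oligodendrocytes), 0.56 to 0.87 (perivascular macrophages), 0.79 to 1.217 (meningeal fibroblasts) and 0.56 to 0.98 (choroid plexus). The last 3 reached an adjusted p of 0.0472 by the exact permutation test without WT mouse 4, the meningeal and choroid plexus lists also without mouse 3 labelled LPAR2-/-. The cause of these changes was not tested. At 3 to 54 counts per mouse, Tlr1, Tlr2, Tlr4, Tlr5, Tlr6 and Tlr9 are limited by depth.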
